A study of Sus scrofa domesticus with 6 samples.

Results

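Collagens and the enzymes and helpers that modify them were examined in the small intestine of 6 minipigs, across control, irradiated and irradiated plus pravastatin-treated animals. The genes were chosen by symbol: every row named COL, a number, A and a number, plus the cross-linking enzymes LOX and LOXL1 to LOXL4, the prolyl 4-hydroxylase subunits P4HA1, P4HA2 and P4HA3, the lysyl hydroxylases PLOD1, PLOD2 and PLOD3, the chaperone SERPINH1, and the propeptide-processing genes PCOLCE and ADAMTS2. BMP1 was left out by the rule. Of 30352 rows with a gene name 57 matched, and 56 were kept because they held at least 50 reads summed over the 6 libraries: 42 collagen chains and 14 enzymes and helpers. COL20A1 was left out with 36 reads, while COL10A1 with 54, COL9A1 with 59 and COL25A1 with 61 lay just inside. All 56 genes were among the 18197 with enough reads to be tested.

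All animals were wild-type Göttingen minipigs aged 6 months, with n = 2 animals and 1 library per animal in each group. The control group is labelled only as control. The IR group received 15 Gy of 60Co gamma rays to the abdomen, and the IR_Pra group received that exposure plus pravastatin by mouth at 40 mg/day for 2 weeks, with tissue taken on day 14. Pravastatin is a statin, a drug that inhibits HMG-CoA reductase in cholesterol synthesis. The label of the treated group abbreviates the drug as PS in one field and Pra in another, and both were read as pravastatin. The pieces are whole tissue, so more cells of a type and more RNA per cell cannot be told apart.

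Collagen chains are made in the endoplasmic reticulum, where prolyl and lysyl residues are hydroxylated and the chains wind into a triple helix that SERPINH1 holds in shape. After secretion the propeptides of fibrillar collagens are cut off, fibrils assemble, and lysyl oxidases start the cross-links that make them resistant to breakdown. In gut wall the fibrillar types I, III and V lie in the submucosa, the lamina propria and around muscle, type IV forms the sheet under epithelium, vessels and muscle cells, and fibrillar collagen accumulates in radiation fibrosis.

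The libraries held 48600424 to 73975174 counts. Values are CPM (read counts scaled to a common library size with the TMM factors of edgeR) unless FPKM is named, which also divides by transcript length and was used to compare levels between genes. Fold changes are log2 with their standard error, and adjusted p is the edgeR quasi-likelihood F test with Benjamini-Hochberg adjustment over all 18197 genes. Genes past an adjusted p of 0.05 are said to have risen or fallen. The IR libraries stood apart from each other. With all genes in 10 equal classes of transcript length, the median log2 ratio to control in IR 1 was 0.62 in the shortest class (median 800 nt) and -0.71 in the longest (median 9418 nt), against 0.03 and -0.16 in IR 2. The 8 epithelial markers, all read in every library, summed to 6861 CPM in IR 1 and to 1482 in IR 2, against 6851 to 8467 in control and IR_Pra. Their median log2 ratio to control was -0.28 in IR 1 and -2.46 in IR 2. The 7 smooth muscle markers, led by MYH11, ACTG2, TAGLN and DES, summed to 5778 and 11871 CPM in the controls, 32442 and 67926 in IR and 19704 and 13655 in IR_Pra. The 4 skeletal muscle markers, of which CKM gave most of the reads, summed to 39.2 and 123 CPM in the controls, 344 and 391 in IR and 203 and 137 in IR_Pra. Of these MYH1 and MYH2, each under 4 CPM in every library, rose in IR against control (adjusted p = 0.0487 and 0.0391). Of 5 leukocyte markers the macrophage receptor CD163 rose, from 10.02 and 10.2 CPM in the controls to 134 and 206 in IR (adjusted p = 0.0331), with 44.1 and 42.5 in IR_Pra. The other 4 did not pass, and the median log2 fold change of the 5 was -1.08. For 3 of the 5 both IR libraries lay below both controls (30% of all genes), and for 1 both lay above (29.8% of all genes). PTPRC had 10934 and 8843 reads in the controls and 2164 and 6011 in IR, and CD79A 3399 and 2040 against 578 and 656. The part of these cell types in the results on collagen genes was not tested.

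The whole set took a larger share of the RNA in both irradiated groups. It held 0.447% and 0.617% of the counts in the controls, 1.34% and 4.54% in IR, and 1.29% and 0.903% in IR_Pra. Every IR and IR_Pra library lay above both controls, and IR 2 lay far above the other 5. COL1A1, COL1A2 and COL3A1, the chains of the main tissue fibrils, supplied 33.8% and 43.2% of these reads in the controls, 45.5% and 53.2% in IR, and 51.1% and 47.7% in IR_Pra. Chains exceeded enzymes and helpers by 8.26 and 8.93 times in reads in the controls, 10.2 and 19.9 times in IR, and 11.6 and 10.1 times in IR_Pra. Set against the smooth muscle markers, the groups overlapped: the ratio of the summed CPM was 0.775 and 0.512 in the controls, 0.476 and 0.653 in IR, and 0.615 and 0.634 in IR_Pra. The part of smooth muscle in the larger share was not tested further. Set against 8 fibroblast markers, whose own sum was 708 and 1059 CPM in the controls, 1813 and 2587 in IR and 1434 and 1188 in IR_Pra, the ratio was 6.32 and 5.74 in the controls, 8.53 and 17.2 in IR, and 8.45 and 7.28 in IR_Pra.

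**Figure D1:**
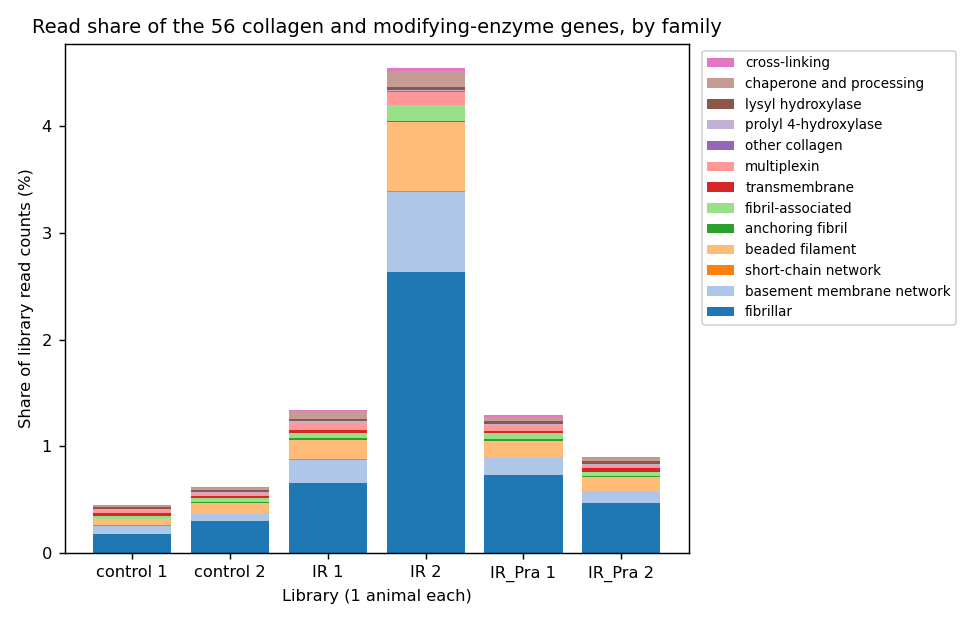
Share of all read counts (%) held by the 56 genes in each library, stacked by family, with 1 bar per animal. Fibrillar chains are the largest block in the irradiated libraries, and the total runs from 0.447% in control 1 to 4.54% in IR 2.

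Irradiation was compared with control first. Of the 56 genes 12 passed the threshold, which is 21.4%, against 6.06% of all genes tested. The 8 that rose were the helpers PCOLCE and SERPINH1, the cross-linking enzymes LOXL1 and LOXL2, and the chains COL5A3, COL16A1, COL18A1 and COL28A1. The 4 that fell were the chains COL4A3, COL4A4, COL6A6 and COL24A1. Among all genes, 3.39% rose and 2.68% fell. The median log2 fold change of the 56 genes was 1.11 (0.54 without IR 2 and 1.68 without IR 1), against 0.03 over all genes. Control and IR values did not overlap for 39 of the 56 genes (69.6%, against 59.8% of all genes), with IR higher for 28 (50%, against 29.8% of all genes) and lower for 11 (19.6%, against 30% of all genes). The log2 fold change was positive for 40 (71.4%, against 51.3% of all genes).

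The number that passed depended on the libraries and on the length trend. It was higher without IR 1 and without IR 2, which left a single IR animal and took the spread within IR out of the fit. Leaving out a control or an IR_Pra library left 0 of all genes past the threshold, so every edgeR call printed here for IR against control was lost when any of those 4 libraries was left out. With the length trend of each library removed, 12 passed again but all 12 were higher in IR, and 7 of them were among the first 12. The share of all genes past the threshold in that fit is not given here. COL4A3, COL4A4, COL6A6, COL24A1 and LOXL1 then missed the threshold, with adjusted p from 0.0514 to 0.0739.

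**Figure D2:**
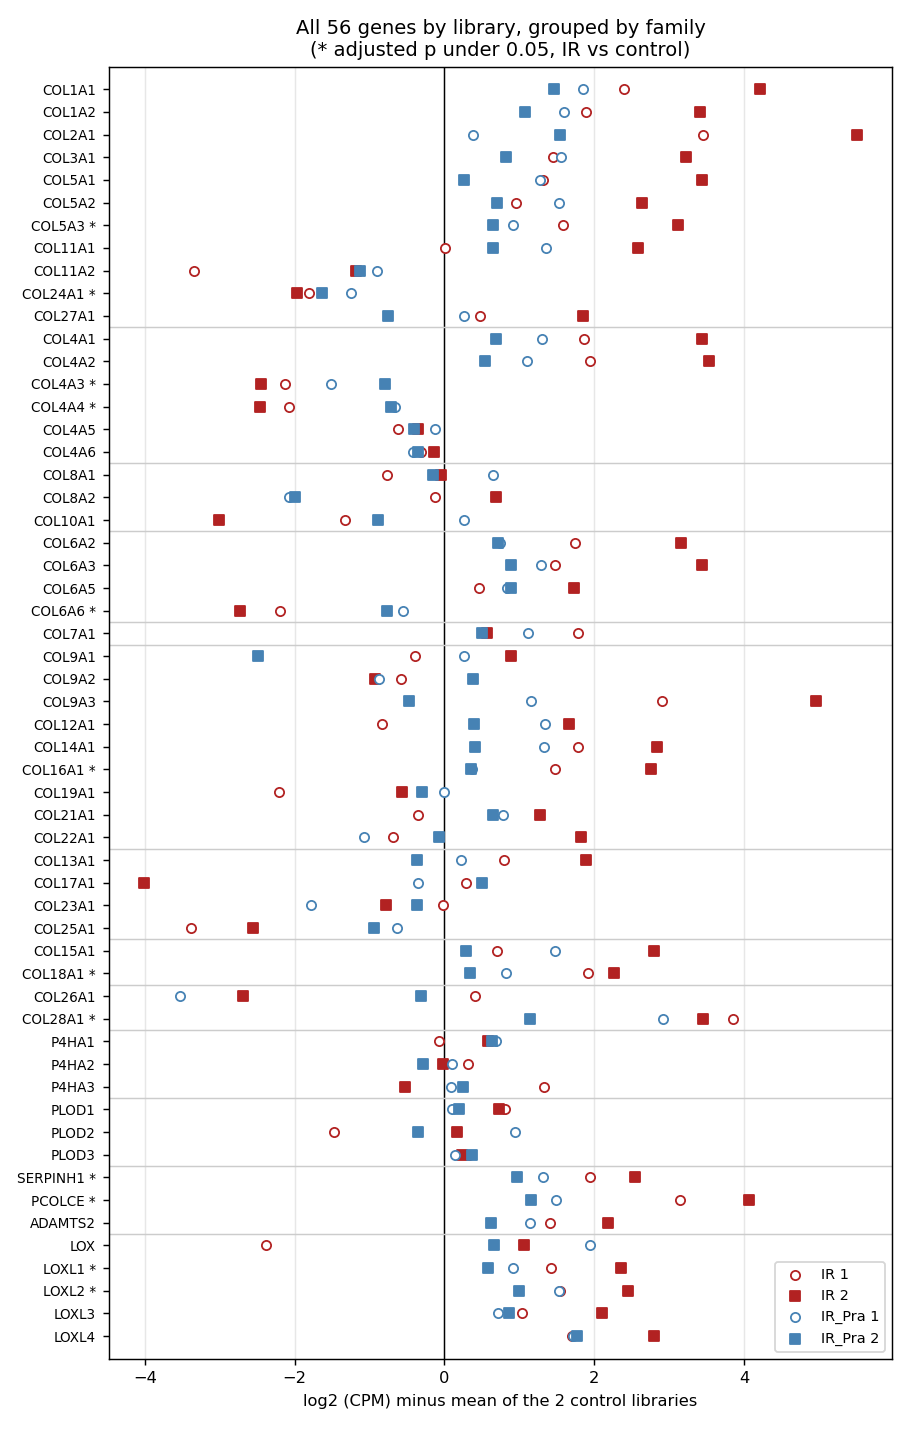
Each row is 1 of the 56 genes, grouped by family in blocks. Points give the log2 CPM of each IR (red) and IR_Pra (blue) library minus the mean of both control libraries, and an asterisk marks genes past the threshold in IR against control. Most fibrillar, processing and cross-linking genes lie to the right of 0 and IR 2 is often farthest out, while COL4A3, COL4A4, COL6A6 and COL24A1 lie to the left.

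The fibrillar family had 11 chains with a median log2 fold change of 2.55, of which COL5A3 rose, COL24A1 fell and 9 did not pass. COL1A1 (Entrez 100738123, chromosome 12, 26379087 to 26397180 on Sscrofa11.1), which gives the α1 chain of type I collagen, was 338 and 683 CPM in the controls, 2532 and 8944 in IR, and 1724 and 1321 in IR_Pra. Both IR libraries lay above all others, and the change of 3.49 ± 0.83 did not pass (adjusted p = 0.0613). COL1A2, the partner α2 chain, was 316 and 495 CPM in the controls, 1460.0 and 4199 in IR, and 1194 and 836 in IR_Pra (2.80 ± 0.65, adjusted p = 0.0597). COL3A1, the single chain of type III collagen, was 859.9 and 1445 CPM in the controls, 3037 and 10460.5 in IR, and 3274 and 1969 in IR_Pra (2.55 ± 0.82, adjusted p = 0.107). Without IR 2, which left a single IR animal, the changes were 2.31 for COL1A1, 1.84 for COL1A2 and 1.39 for COL3A1. IR_Pra 1 was above IR 1 for COL3A1, whereas for COL1A1 and COL1A2 both IR_Pra libraries were below both IR libraries.

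COL3A1 had the highest mean FPKM of the 56 genes in each group, at 172 and 294 FPKM in the controls, 529.7 and 2156 in IR, and 701 and 411 in IR_Pra. Ratios between fibrillar chains were compared in FPKM, with 2 animals a group and without removal of the length trend. COL3A1 exceeded COL1A1 in FPKM by 3.13 and 2.64 times in control, by 1.49 and 1.42 times in IR, and by 2.27 and 1.79 times in IR_Pra. The 3 groups did not overlap in this ratio. The FPKM ratio of COL1A1 to COL1A2, whose chains join in type I collagen, was 0.927 and 1.18 in the controls, 1.49 and 1.87 in IR, and 1.29 and 1.40 in IR_Pra, again without overlap. These ratios have no test beyond that, since the smallest two-sided exact permutation p of 2 animals against 2 is 0.333.

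Type V collagen sits in the core of type I fibrils and limits their width. COL5A3 (Entrez 397531, chromosome 2, 68828197 to 68869914), its least common chain, was 15.1 and 15.4 CPM in the controls, 45.7 and 133 in IR, and 28.8 and 23.9 in IR_Pra, and rose by 2.55 ± 0.51 in IR (adjusted p = 0.0482), or by 1.58 without IR 2. COL5A1 was 97.9 and 130.4 CPM in the controls, 281 and 1219.7 in IR, and 273 and 135 in IR_Pra (2.72 ± 0.75, adjusted p = 0.0792). COL5A2 was 84.4 and 99.8 CPM in the controls, 178 and 572 in IR, and 264 and 149.7 in IR_Pra (2.03 ± 0.60, adjusted p = 0.0903). For all 3 chains both IR libraries lay above both controls. The FPKM ratio of COL5A1 to COL5A2 was 1.05 and 1.18 in the controls, 1.45 and 1.92 in IR, and 0.932 and 0.814 in IR_Pra. COL5A2 lies 16177 bases from COL3A1 on chromosome 15.

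COL24A1 (Entrez 102157845, chromosome 4, 129911760 to 130243177), a minor fibrillar chain, went the other way. It was 27.7 and 16.5 CPM in the controls, 6.11 and 5.47 in IR, and 8.96 and 6.85 in IR_Pra, and fell by 1.93 ± 0.35 in IR (adjusted p = 0.0432, and 0.0631 with the length trend removed). Its implied transcript length is 8476 nt. COL2A1, the cartilage fibril chain, had 2 and 10 reads in the controls, 66 and 392 in IR, and 6 and 16 in IR_Pra (5.002 ± 1.08, adjusted p = 0.0525). COL11A2, which partners type II collagen in cartilage, was 4.45 and 23.0 CPM in the controls, 0.966 and 4.44 in IR, and 5.39 and 4.63 in IR_Pra (-2.34 ± 0.97, adjusted p = 0.170). The cartilage marker ACAN had 0 reads in both controls, 8 and 93 in IR and 8 and 6 in IR_Pra, and MATN1 had 0 and 24 in the controls, 0 and 27 in IR and 0 and 9 in IR_Pra. The 2 of 5 cartilage and bone markers with enough reads to be tested, MATN1 and BGLAP, summed to 2.61 and 2.78 CPM in the controls, 2.41 and 4.09 in IR, and 1.76 and 3.02 in IR_Pra. The part of such tissue in the COL2A1 values was not tested. The remaining fibrillar chains, COL11A1 and COL27A1, ran from 0.318 to 2.40 CPM and from 23.0 to 141 CPM over the libraries and did not pass.

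Of the 3 chaperone and processing genes 2 rose. SERPINH1 (Entrez 396773, chromosome 9, 9782939 to 9794485), the collagen-specific chaperone HSP47, was 105 and 110.3 CPM in the controls, 414 and 626 in IR, and 269.5 and 210.4 in IR_Pra. The 3 groups did not overlap, with IR highest and control lowest, and it rose by 2.27 ± 0.32 in IR (adjusted p = 0.0370). PCOLCE (Entrez 100627524, chromosome 3, 8523455 to 8528749), which enhances cleavage of the C-terminal propeptide, was 32.7 and 64.4 CPM in the controls, 406 and 767 in IR, and 129 and 102 in IR_Pra. It rose by 3.59 ± 0.50 in IR, a 12.1-fold difference (adjusted p = 0.0370), or by 4.21 without control 2, in the same order of groups without overlap. ADAMTS2, the protease that removes the N-terminal propeptide, was 10.5 and 16.9 CPM in the controls, 35.5 and 60.6 in IR, and 29.3 and 20.5 in IR_Pra (1.81 ± 0.40, adjusted p = 0.0557). Both PCOLCE (1766 nt) and SERPINH1 (2264 nt) have short transcripts for this set, whose median is 5533 nt, and both also passed with the length trend removed (adjusted p = 0.0459 and 0.0450).

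Of the 5 cross-linking enzymes, LOXL1 and LOXL2 rose and 3 did not pass, with a family median of 1.97. LOXL2 (Entrez 110256870, chromosome 14, 7435861 to 7540699) was 29.1 and 24.3 CPM in the controls, 77.6 and 145 in IR, and 76.6 and 53.1 in IR_Pra, and rose by 2.06 ± 0.38 in IR (adjusted p = 0.0439). LOXL1 (Entrez 100154899, chromosome 7, 59481410 to 59505161), which also acts on elastin, was 9.87 and 8.70 CPM in the controls, 24.9 and 47.8 in IR, and 17.5 and 13.9 in IR_Pra, and rose by 1.97 ± 0.37 (adjusted p = 0.0454). LOXL4 was 3.34 and 6.08 CPM in the controls, 14.7 and 31.4 in IR, and 14.9 and 15.4 in IR_Pra (2.29 ± 0.48, adjusted p = 0.0510). LOXL3 was 9.12 and 10.7 CPM in the controls, 20.4 and 42.7 in IR, and 16.3 and 18.0 in IR_Pra (1.67 ± 0.39, adjusted p = 0.0605). For 4 of the 5 enzymes both IR libraries lay above both controls (29.8% of all genes). Both IR_Pra libraries lay above both controls for all 5 (20.8% of all genes). LOX itself, the founding lysyl oxidase, was 1.89 and 3.48 CPM in the controls, 0.464 and 5.37 in IR, and 9.92 and 4.07 in IR_Pra (0.13 ± 1.04, adjusted p = 0.947). Its lowest and its second highest value both came from IR animals, which had 25 and 407 reads.

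Of the 6 hydroxylase genes 0 passed the edgeR test, 1 (PLOD1) had an unadjusted p under 0.05 (as did 32 of the 56 genes and 30.2% of all genes), DESeq2 called 1 and limma voom 0. The median log2 fold change was 0.20 for the 3 prolyl 4-hydroxylase subunits and 0.28 for the 3 lysyl hydroxylases. P4HA1, a catalytic subunit of the enzyme that hydroxylates proline so that the helix is stable at body temperature, was 21.001 and 43.7 CPM in the controls, 28.9 and 45.5 in IR, and 48.9 and 46.9 in IR_Pra (0.20 ± 0.41, adjusted p = 0.769). P4HA3 was 1.82 and 1.84 CPM in the controls, 4.66 and 1.25 in IR, and 1.95 and 2.18 in IR_Pra (0.69 ± 0.64, adjusted p = 0.502). PLOD2, which hydroxylates telopeptide lysines and thereby sets the kind of cross-link, was 36.7 and 54.5 CPM in the controls, 16.1 and 50.2 in IR, and 85.6 and 35.1 in IR_Pra (-0.46 ± 0.64, adjusted p = 0.660). Control and IR overlapped for each of these 3 genes. PLOD1 was 79.5 and 70.6 CPM in the controls, 132 and 124 in IR, and 80.2 and 85.8 in IR_Pra, with both IR libraries above the other 4. P4HA2 ran from 71.2 to 116 CPM and PLOD3 from 71.2 to 98.4 CPM over the libraries.

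**Figure D3:**
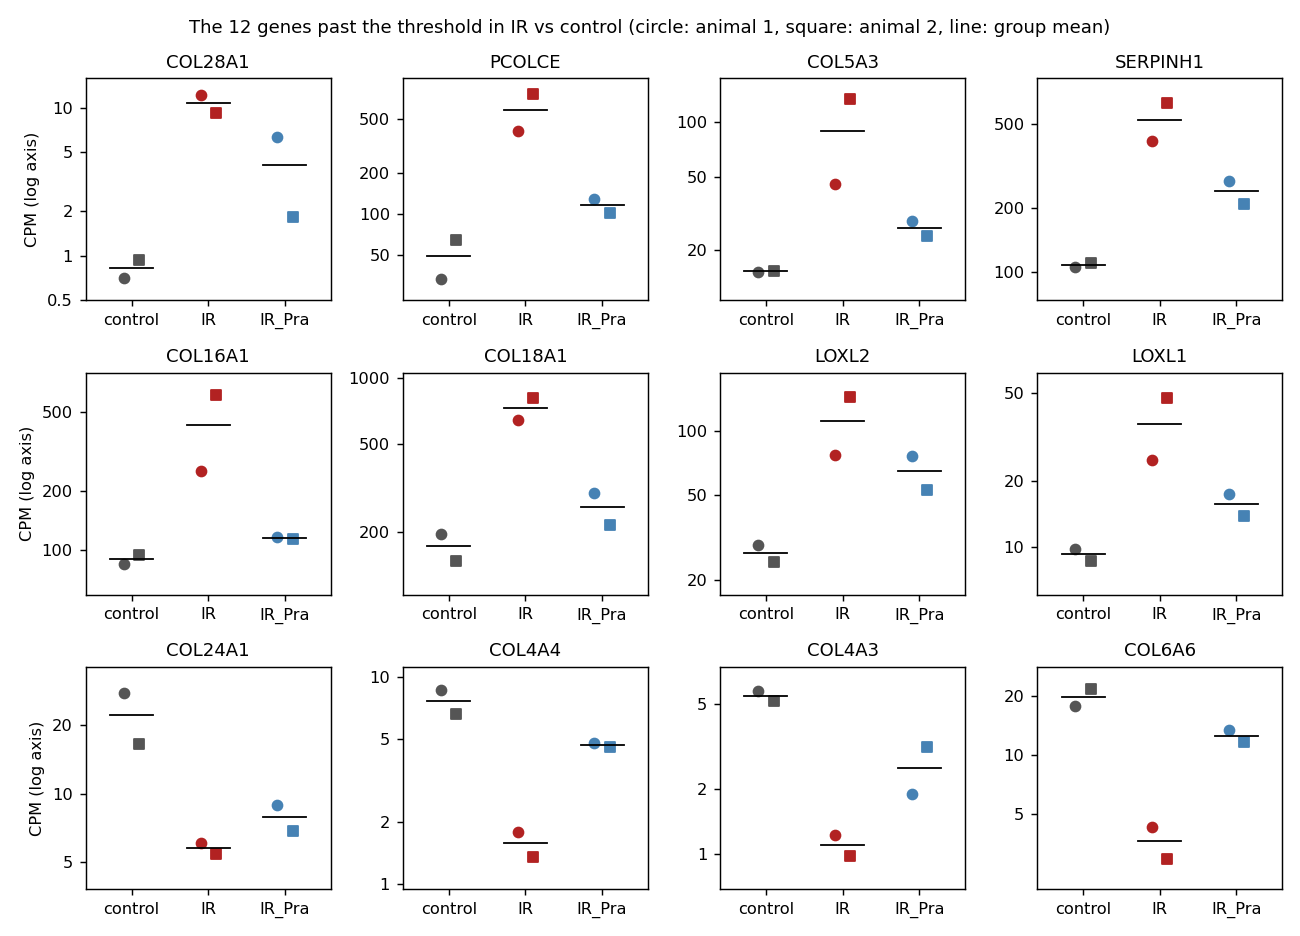
CPM on log axes, each panel with its own range, for the 12 genes that passed the threshold in IR against control (circle, animal 1; square, animal 2; line, group mean). In each panel control and IR do not overlap, and most IR_Pra values lie between them. The panels were picked for their difference between control and IR, so neither trait is a separate result. The IR_Pra mean lay between the control and IR means for 71.4% of the 56 genes and 53.3% of all genes tested.

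Of the 6 chains of type IV collagen, the network of basement membranes, COL4A3 and COL4A4 fell and the other 4 did not pass. COL4A1 (Entrez 100515336, chromosome 11, 76858332 to 76997409) and COL4A2 (Entrez 100153454, chromosome 11, 76996885 to 77161617) give the chains found in nearly all basement membranes. COL4A1 was 391 and 308 CPM in the controls, 1266 and 3764 in IR, and 858 and 559 in IR_Pra (2.85 ± 0.64, adjusted p = 0.0564). COL4A2 was 330.4 and 286 CPM in the controls, 1180.0 and 3564 in IR, and 663 and 449 in IR_Pra (2.94 ± 0.63, adjusted p = 0.0523). Both IR libraries were above all others, and with the length trend removed both chains passed (adjusted p = 0.0465 and 0.0457). Without IR 2 the changes were 1.85 for COL4A1 and 1.93 for COL4A2.

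COL4A3 (Entrez 100621504, chromosome 15, 128611640 to 128763331) and COL4A4 (Entrez 100621403, chromosome 15, 128472228 to 128612302) give chains of a restricted network best known from the kidney glomerulus. COL4A3 was 5.75 and 5.19 CPM in the controls, 1.23 and 0.977 in IR, and 1.89 and 3.15 in IR_Pra, and fell by 2.31 ± 0.42 in IR (adjusted p = 0.0432, and 0.0739 with the length trend removed). COL4A4 was 8.64 and 6.67 CPM in the controls, 1.78 and 1.35 in IR, and 4.79 and 4.60 in IR_Pra, and fell by 2.29 ± 0.35 (adjusted p = 0.0370, and 0.0602 with the length trend removed). For both chains the groups did not overlap, with IR lowest and IR_Pra between. COL4A4, at 10340 nt, and COL4A3, at 8991 nt, have among the longer transcripts of the set. Both chains were low in IR 2, where the epithelial markers summed to 1482 CPM, and in IR 1, where they summed to 6861. That sum hides differences between markers. In reads, not scaled for library size, EPCAM, CDH1, VIL1, KRT19 and KRT20 were lower in IR 1 than in either control. KRT19 was only just lower, at 70803 reads against 71112 in control 1. KRT18 and CDX2 had more reads in IR 1 than in either control, and KRT8 lay between the controls. The median log2 ratio of the 8 markers to control was -0.28 in IR 1 and -2.46 in IR 2. The part of epithelium in the COL4A3 and COL4A4 values was not tested.

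The FPKM ratio of COL4A1 to COL4A2 stayed between 1.02 and 1.24 over the 6 libraries, while that of COL4A1 to COL4A3 was 91.2 and 79.5 in the controls, 1397 and 5207 in IR, and 612 and 239 in IR_Pra. The ratio of COL4A3 to COL4A4 was 0.453 in IR_Pra 1 and 0.768 to 0.898 in the other 5 libraries. The annotated models of COL4A1 and COL4A2 overlap by 525 bases, and those of COL4A3 and COL4A4 by 663. The sources used here do not say how reads in such overlaps were assigned, so the split of a pair is less certain than its sum. COL4A5 and COL4A6, the X-linked pair, ran from 23.5 to 36.4 CPM and from 15.4 to 21.9 CPM. Neither passed, and their FPKM ratio was 1.77 and 1.52 in the controls, 1.31 and 1.40 in IR, and 2.03 and 1.56 in IR_Pra.

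**Figure D4:**
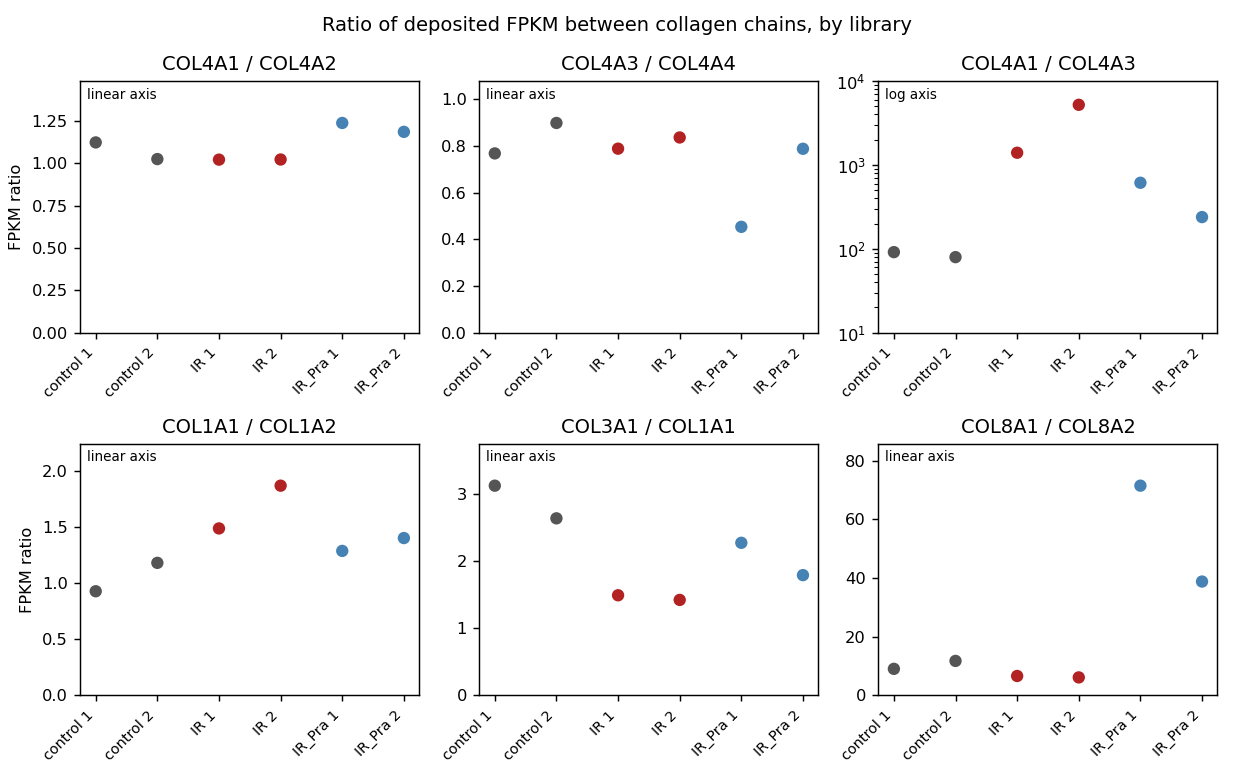
FPKM ratio of chain pairs in each library (linear axes from 0, except a log axis for COL4A1 to COL4A3). COL4A1 to COL4A2 stays between 1.02 and 1.24, COL4A1 to COL4A3 is at least 1397 in IR against at most 91.2 in control, and COL8A1 to COL8A2 is 71.5 and 38.8 in IR_Pra against 6.12 to 11.7 elsewhere.

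Type VI collagen forms beaded microfilaments around cells. COL6A6 (Entrez 100516642, chromosome 13, 1817475 to 1985968), an alternative to the α3 chain, was 17.7 and 21.7 CPM in the controls, 4.25 and 2.93 in IR, and 13.4 and 11.6 in IR_Pra. The groups did not overlap, and it fell by 2.46 ± 0.32 in IR (adjusted p = 0.0370, and 0.0514 with the length trend removed). COL6A3, the usual α3 chain, was 195 and 292 CPM in the controls, 661 and 2593 in IR, and 585 and 442 in IR_Pra (2.74 ± 0.70, adjusted p = 0.0691). COL6A2 was 299 and 502 CPM in the controls, 1300.2 and 3463 in IR, and 646 and 639 in IR_Pra, and did not pass. COL6A5, whose annotated model lies 43574 bases from COL6A6, was 40.7 and 139.9 CPM in the controls, 104 and 250.0 in IR, and 135 and 140.3 in IR_Pra, so that control and IR overlapped.

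No row carries the symbol COL6A1. The row LOC100623720 on chromosome 13, annotated as the α1 chain of type VI collagen, does not meet the rule and is not counted among the 56. It was 393 and 682 CPM in the controls, 1687 and 4438 in IR, and 963 and 1027 in IR_Pra (2.51 ± 0.62, adjusted p = 0.0664). Its FPKM ratio to COL6A2 was 1.35 and 1.44 in the controls, 1.33 and 1.31 in IR, and 1.55 and 1.72 in IR_Pra. In all, 37 rows under such locus names are annotated as a collagen α chain, 20 of them with at least 50 reads. Where such a row is a near copy of a named chain, reads could be split between them.

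Fibril-associated collagens coat fibrils and link them to other matrix. Of 9 tested, COL16A1 rose and 8 did not pass. COL16A1 (Entrez 100737666, chromosome 6, 88177798 to 88243718) was 85.3 and 94.7 CPM in the controls, 251 and 606 in IR, and 116 and 115 in IR_Pra, and rose by 2.25 ± 0.45 in IR (adjusted p = 0.0473), or by 1.48 without IR 2. Both IR libraries stood above the other 4, which lay close together. COL9A3, a chain best known from cartilage, was 1.19 and 2.16 CPM in the controls, 12.2 and 50.9 in IR, and 3.61 and 1.14 in IR_Pra (4.23 ± 0.92, adjusted p = 0.0531), while COL9A1 and COL9A2, the other chains of type IX, were at 0 to 0.317 and 1.31 to 3.38 CPM. COL12A1 was 71.1 and 81.0 CPM in the controls, 42.6 and 240.2 in IR, and 193 and 99.8 in IR_Pra (0.90 ± 0.77, adjusted p = 0.466), so the IR animals lay on either side of control. COL14A1, its close relative, was 46.3 and 119 CPM in the controls, 256 and 533 in IR, and 187 and 98.7 in IR_Pra and did not pass. COL19A1, COL21A1 and COL22A1 stayed under 20 CPM in every library, between 1.17 and 19.2.

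COL18A1 (Entrez 100624675, chromosome 13, 207907835 to 207984082), a basement membrane collagen whose C-terminal fragment is endostatin, was 195 and 148 CPM in the controls, 642 and 812 in IR, and 300.4 and 215 in IR_Pra, without overlap between groups, and rose by 2.08 ± 0.34 in IR (adjusted p = 0.0391). COL15A1, the other collagen of its class, was 47.6 and 66.9 CPM in the controls, 92.0 and 393 in IR, and 158 and 69.1 in IR_Pra and did not pass. COL28A1 (Entrez 100510974, chromosome 9, 77670890 to 77841939), a collagen described around glia of peripheral nerve, had 41 and 59 reads in the controls, 656 and 704 in IR, and 330 and 98 in IR_Pra. It was 0.710 and 0.937 CPM in the controls, 12.2 and 9.30 in IR, and 6.37 and 1.84 in IR_Pra, and rose by 3.70 ± 0.67 in IR (adjusted p = 0.0426), the highest change among the 12. Of the enteric glia markers, GFAP was 2.49 and 2.14 CPM in the controls, 29.6 and 42.8 in IR, and 5.48 and 4.52 in IR_Pra, and rose by 3.97 ± 0.33 in IR (adjusted p = 0.0331). SOX10 was 2.42 and 4.46 CPM in the controls, 10.1 and 34.2 in IR, and 4.60 and 3.41 in IR_Pra, and did not pass. S100B was 18.2 and 23.04 CPM in the controls, 37.15 and 76.0 in IR, and 18.7 and 26.9 in IR_Pra, and did not pass. All 3 had higher values in both IR libraries than in the other 4, as did COL28A1, and the part of glia in the COL28A1 values was not tested.

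COL17A1, a transmembrane collagen of epithelial hemidesmosomes, was 274 and 203 CPM in the controls, 288 and 14.6 in IR, and 184 and 333 in IR_Pra (-0.66 ± 1.14, adjusted p = 0.728). A single library, IR 2, was low, and it is also the one with the lowest epithelial markers, whose part was not tested. Without IR 2 the fold change was 0.27. The other transmembrane chains, COL13A1, COL23A1 and COL25A1, did not pass. COL13A1 was 7.03 and 10.8 CPM in the controls, 15.2 and 32.3 in IR, and 10.1 and 6.73 in IR_Pra, with both IR libraries above the other 4. COL7A1, which forms the anchoring fibrils under epithelium, was 78.9 and 65.4 CPM in the controls, 248 and 106 in IR, and 156 and 102 in IR_Pra and did not pass. COL26A1 ran from 0.676 to 10.9 CPM.

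The IR animals differed from each other across the set. IR 2 exceeded IR 1 for 41 of the 56 genes, with a median log2 difference of 1.06, against 0.15 over all genes tested, and 29 genes were more than 1 log2 unit higher in IR 2 while 5 were more than 1 lower. On the log2 CPM scale with a prior count of 2, LOX was 10.9 times as high in IR 2 as in IR 1, and COL17A1 was at 0.0508 of its IR 1 level. The set has long transcripts, with a median implied length of 5533 nt against 3103 nt over all genes, and 27 of the 56 fall in the longest 2 of the 10 length classes. In those classes IR 2 exceeded IR 1 by a median of 0.52 and 0.67 over all genes. COL17A1, COL7A1, COL23A1, COL6A6, COL4A4, COL4A3 and COL24A1 are also in them and were lower in IR 2 than in IR 1. The part of the length trend in single values was not tested beyond the fit in which it was removed.

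**Figure D5:**
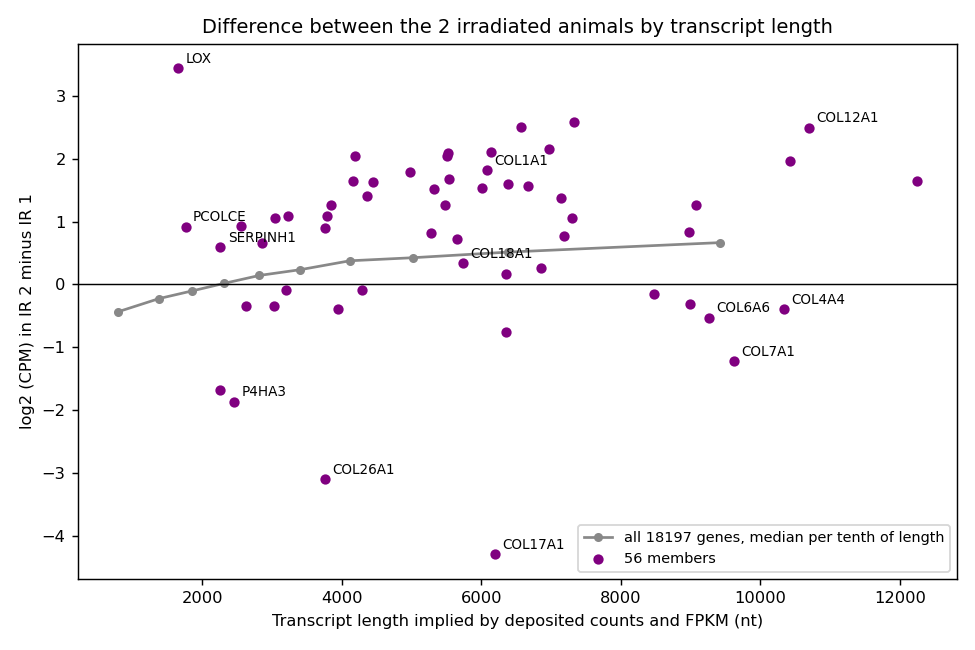
Log2 CPM (prior count of 2) in IR 2 minus IR 1 against the transcript length implied by deposited counts and FPKM (nt). Purple points are the 56 genes and the grey line joins the medians of all 18197 genes in the 10 length classes. Most purple points lie above the grey line, with LOX highest at its 10.9-fold difference and COL17A1 lowest.

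Pravastatin was assessed by comparing IR_Pra with IR, which asks what the drug changed in irradiated animals. It shares its IR libraries with the first comparison, so a high value in an IR animal raises that comparison and lowers this one. Opposite signs in these comparisons are therefore partly built in. Of the 56 genes 0 passed the edgeR test, against 0.0055% of all genes (1 of 18197). At an unadjusted p under 0.05 there were 21 genes, 17 lower and 4 higher in IR_Pra, which is 37.5% against 24.5% of all genes. DESeq2 called 16 (14 lower and 2 higher) and limma voom 0. The median log2 fold change was -0.79 (-0.25 without IR 2 and -1.17 without IR 1), against -0.02 over all genes. IR and IR_Pra did not overlap for 34 genes (60.7%, against 53.9% of all genes), 25 of them lower and 9 higher in IR_Pra (44.6% and 16.1%, against 26.6% and 27.3% of all genes). The log2 fold change was positive for 17 (30.4%, against 49.1% of all genes). The count rested on the IR animals: some genes passed without IR 1, and fewer without IR 2. Either fit left a single IR animal and took the spread within IR out of the estimate.

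The library values of these genes are those given above. COL6A6 was 1.80 ± 0.31 higher in IR_Pra than in IR (adjusted p = 0.0761) and COL4A4 was 1.59 ± 0.35 higher (adjusted p = 0.0906). PCOLCE gave -2.35 ± 0.48 (adjusted p = 0.0855), COL18A1 -1.50 ± 0.33 (adjusted p = 0.0917) and COL16A1 -1.89 ± 0.44 (adjusted p = 0.0940). For each of these 5 genes the IR and IR_Pra libraries did not overlap, as for 53.9% of all genes. They have small p-values in this comparison, so this is no separate result. COL1A1 gave -1.91 ± 0.78 (adjusted p = 0.203), COL1A2 -1.48 ± 0.62 (adjusted p = 0.216) and COL3A1 -1.36 ± 0.79 (adjusted p = 0.336). Without IR 2 these 3 values were -0.73, -0.52 and -0.21. SERPINH1 gave -1.12 ± 0.31 (adjusted p = 0.114), LOXL1 -1.21 ± 0.37 (adjusted p = 0.127) and LOXL2 -0.78 ± 0.37 (adjusted p = 0.254). The chains found mainly in cartilage, COL2A1 (-3.93 ± 0.9999, adjusted p = 0.103) and COL9A3 (-3.73 ± 0.89, adjusted p = 0.0961), had the lowest log2 values among genes with a mean of at least 1 CPM.

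COL8A2 had a pattern of its own in the short-chain network family. It was 2.11 and 3.51 CPM in the controls, 2.49 and 4.42 in IR, and 0.618 and 0.656 in IR_Pra, where it had 32 and 35 reads. Control and IR overlapped (0.30 ± 0.47, adjusted p = 0.698), and both IR_Pra libraries lay below the other 4, with -2.44 ± 0.51 against IR (adjusted p = 0.0857). Its partner COL8A1, which forms hexagonal networks with it under endothelium, was 20.4 and 44.1 CPM in the controls, 17.6 and 29.0 in IR, and 47.0 and 27.0 in IR_Pra. The FPKM ratio of COL8A1 to COL8A2 was accordingly 71.5 and 38.8 in IR_Pra, against 9.04 and 11.7 in the controls and 6.60 and 6.12 in IR. COL10A1, the growth plate chain of the family, had 54 reads in all.

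Against control, IR_Pra asks what remained different in treated irradiated animals, and it shares its control libraries with the first comparison and its IR_Pra libraries with the second. Of the 56 genes 0 passed the edgeR test, as did 0% of all genes, and 8 had an unadjusted p under 0.05 (5 higher and 3 lower, 14.3% against 3.42% of all genes). DESeq2 called 1, COL8A2 (chosen here after its value was seen), and limma voom 0. The median log2 fold change was 0.58, against 0.00 over all genes. IR_Pra and control did not overlap for 40 genes (71.4%, against 40.8% of all genes), with IR_Pra higher for 30 and lower for 10 (53.6% and 17.9%, against 20.8% and 20% of all genes). The log2 fold change was positive for 37 (66.1%, against 50.6% of all genes). The adjusted p was 0.9998 for each of the 56 genes. COL28A1 was 2.31 ± 0.64 higher, LOXL4 1.69 ± 0.47, COL1A1 1.58 ± 0.77, COL1A2 1.32 ± 0.62, LOXL2 1.28 ± 0.37, PCOLCE 1.25 ± 0.46, COL3A1 1.19 ± 0.79 and SERPINH1 1.15 ± 0.31, none past the threshold. COL24A1 (-1.48 ± 0.35), COL8A2 (-2.14 ± 0.50) and COL4A3 (-1.12 ± 0.41) had negative values.

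Genes that work with collagen were taken from 4 lists. Of 25 tested partners of collagen synthesis, 7 rose in IR against control and 0 fell, with a median of 1.03, against 3.39% and 2.68% of all genes and a median of 0.03. P3H4, a helper of lysyl hydroxylation, was 8.57 and 11.07 CPM in the controls, 48.1 and 59.3 in IR, and 15.9 and 16.8 in IR_Pra (2.45 ± 0.26, adjusted p = 0.0359). P3H3, which acts with it, rose by 2.36 ± 0.27 (adjusted p = 0.0359), the prolyl isomerase FKBP10 by 2.49 ± 0.40 (adjusted p = 0.0391, and by 1.83 without IR 2) and the prolyl 3-hydroxylase P3H1 by 1.66 ± 0.29 (adjusted p = 0.0410). For these 4 genes both IR libraries exceeded the other 4. PPIB, CREB3L1 and TXNDC5 also rose.

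Of 27 partners of the collagen fibril, all with a positive log2 fold change and a median of 1.44, 4 rose and 0 fell. Over all genes 51.3% had a positive value, 3.39% rose and 2.68% fell. Those that rose were AEBP1, a collagen-binding protein (2.02 ± 0.23, adjusted p = 0.0359), the small proteoglycan BGN (2.01 ± 0.29, adjusted p = 0.0370), and the elastic-fibre glycoproteins FBLN1 (2.31 ± 0.38, adjusted p = 0.0391) and FBLN5 (1.65 ± 0.27, adjusted p = 0.0391). Of 24 receptors and turnover genes, the protease inhibitors TIMP1 (3.23 ± 0.28, adjusted p = 0.0331) and TIMP2 (1.97 ± 0.32, adjusted p = 0.0391) rose, as did MRC2, the endocytic receptor for collagen fragments (1.91 ± 0.36, adjusted p = 0.0444). ITGA2, the α2 chain of an epithelial and platelet collagen receptor, was 35.9 and 36.9 CPM in the controls, 4.74 and 8.72 in IR, and 55.9 and 31.9 in IR_Pra, and fell by 2.44 ± 0.42 (adjusted p = 0.0410). That list thus had 3 that rose and 1 that fell, against 3.39% and 2.68% of all genes, 20 that did not pass and a median of 0.71.

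Of 22 profibrotic signal genes with a median of 0.46, CYR61, a matricellular protein also named CCN1, rose by 3.50 ± 0.66 (adjusted p = 0.0451, and by 4.19 without control 1) and SMAD4, the shared mediator of TGF-β signals, fell by 1.11 ± 0.22 (adjusted p = 0.0463). The other 20 did not pass, and over all genes 3.39% rose and 2.68% fell. In IR_Pra against IR 0 of the 98 genes on the 4 lists passed the edgeR test, 25 had an unadjusted p under 0.05 (21 lower and 4 higher, against 24.5% of all genes, 12.8% lower and 11.7% higher), DESeq2 called 23 and limma voom 0. In IR_Pra against control 0 of 98 passed the edgeR test, 12 had an unadjusted p under 0.05 (against 3.42% of all genes), and DESeq2 and limma voom called 0. With the length trend removed TIMP2, CYR61, SMAD4 and ACTA2 missed the threshold in IR against control (adjusted p from 0.0541 to 0.0782). The medians of the lists in IR_Pra against IR were -0.54 for synthesis partners, -0.77 for fibril partners, -0.39 for receptors and turnover, and -0.28 for profibrotic signals. Of the smooth muscle markers ACTA2, the actin also made by myofibroblasts, rose in IR (1.54 ± 0.27, adjusted p = 0.0412) and 6 did not pass, while limma voom called 3 of the 7. Of 8 fibroblast markers 0 passed the edgeR test, 6 had an unadjusted p under 0.05 with IR higher (against 16.4% of all genes), DESeq2 called 5 and limma voom 0.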

How the data were processed

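RNA sequencing of small intestine gave 1 library per animal, 2 in each of 3 groups. The authors' deposited table gives a read count and an FPKM value (reads scaled by transcript length and library size) per gene and library, per the file headers. Per the submitters' processing notes the tools were bcl2fastq 2.20.0, Trimmomatic (no version named), HISAT2 2.1.0 and StringTie 2.1.3b, and the builds Sscrofa11.1 and GRCh38 are named. The sources used here do not give the counting step or the use of strand. Coordinates are RefSeq's on Sscrofa11.1, matched by Entrez ID for all 30352 named rows. Another 24 rows without a name held at most 0.0385% of a library's counts and stayed out.

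The count tests used edgeR 4.0.16 under R 4.3.3: filterByExpr by group, TMM factors, and 1 quasi-likelihood fit (legacy = FALSE) of all 6 libraries with group as the only term, which left 3 residual degrees of freedom. The common biological coefficient of variation was 0.431. Tests were two-sided F tests with Benjamini-Hochberg adjustment over 18197 genes and a threshold of 0.05. Standard errors were derived from F. The script was tested on simulated counts with less spread than these data, equal in all groups. That checks the code and not the error rate here. Transcript lengths were implied by deposited count and FPKM. Replicates of a group differed beyond counting noise, with a chi-square per gene of 145 in control, 1272 in IR and 127 in IR_Pra. Each library is a separate animal, so p-values measure the spread between animals, and the precision rests on 2 animals a group. The fit shares 1 spread per gene over all 3 groups, which does not allow for the wider spread within IR.

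Genes named with a value in every library were 20 listed symbols, of which COL6A1 had no row, every gene past the threshold, and in each comparison the 3 highest and 3 lowest log2 fold changes with a mean of at least 1 CPM. Others were named by family or list, up to 4 by smallest p, or to account for every gene. The ratio of COL6A3 to COL6A1 could not be formed by symbol. The genes, lists, tests and alternatives were chosen with earlier results of these data known. Alternatives were DESeq2 1.42.0, limma 3.58.1 (voom, and trend on log2 FPKM with a pseudocount of 1 or 0.1), other scalings, filters and dispersion settings, a replicate block, the 4 libraries of a comparison alone, each library left out, and a length trend removed per library. One enteric glia marker is not reported here.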

Additional observations from a re-analysis of the deposited data

How the results depend on the processing

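The direction of the median log2 fold change of the 56 genes was the same under every alternative in all 3 comparisons. The number past the threshold in IR against control, 12 as reported, was 32 with DESeq2 (26 higher, 6 lower). It was 5 and 4 with limma on log2 FPKM with a pseudocount of 1 and 0.1, and 4 with library size alone (2 higher, 2 lower). The share of all genes past the threshold with these tools and settings is not given here in any comparison. Their counts, here and above, thus cannot be set against all genes. The number in IR against control was 0 when only the 4 libraries of the comparison were fitted, and ran from 0 to 35 when a library was left out. Both kinds of fit leave fewer degrees of freedom than the main fit, and the cause of the 0 was not tested. Where leaving out a library left 1 library in a group, that library was assumed to vary like the other groups. In IR_Pra against IR, 0 as reported, DESeq2 called 16 and leaving out a library gave 0 to 25. In IR_Pra against control, 0 as reported, DESeq2 called 1 and leaving out a library gave 0. The median log2 fold change ran from 0.54 to 1.68 in IR against control, from -1.17 to -0.25 in IR_Pra against IR and from 0.27 to 0.74 in IR_Pra against control when a library was left out, and the last was 0.33 with log2(FPKM + 1). Of the 12 genes, PCOLCE and SERPINH1 passed under 13 of 20 alternatives each and LOXL1 and COL5A3 under 7 each. With library size alone the median of all genes moved by 0.16 in IR_Pra against IR, and the median of the 56 genes relative to it was -0.83, against -0.77 with TMM. With log2(FPKM + 0.1) the median of all genes moved by 0.18 in that comparison and by -0.12 in IR against control.

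With the replicate number as a block, 0 genes passed in IR against control, and also 0 with the block and the length trend removed together. Deviations of same-numbered libraries from their group means correlated at 0.08 for control and IR, -0.11 for control and IR_Pra, and -0.09 for IR and IR_Pra. With 2 libraries a group such correlations cannot settle whether the numbers pair any samples. In the other 2 comparisons the block changed no count.

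Genes with a change near 0 or set by 1 library turned direction under some alternatives, and the cause was not tested. In IR against control LOX gave -0.55 with limma voom, -0.16 with log2(FPKM + 1), -0.63 with log2(FPKM + 0.1), -0.16 with the replicate block and -0.27 with the block and the length trend removed. In IR_Pra against IR, P4HA3 was 0.0033 with log2(FPKM + 1) and 0.19 with log2(FPKM + 0.1), and COL12A1 was -0.18 with the length trend removed. When a library was left out, the fold change in IR against control ran from -2.53 (without IR 2) to 0.99 (without IR 1) for LOX, from -0.84 (without IR 2) to 1.66 (without IR 1) for COL12A1, and from -4.03 (without IR 1) to 0.27 (without IR 2) for COL17A1. It ran from -0.55 (without IR 1) to 1.35 (without IR 2) for P4HA3, from -1.51 (without IR 2) to 0.13 (without IR 1) for PLOD2, from -0.21 (without control 1) to 0.88 (without control 2) for P4HA1, and from -0.18 (without IR 2) to 0.76 (without control 2) for COL8A2. In IR_Pra against IR it ran from -0.71 (without IR 1) to 1.78 (without IR 2) for COL12A1 and from -0.15 (without IR 2) to 4.15 (without IR 1) for COL17A1. There P4HA3 ran from -1.17 (without IR 2) to 0.72 (without IR 1), COL5A2 from -1.47 (without IR 1) to 0.22 (without IR 2) and LOXL4 from -1.05 (without IR 1) to 0.044 (without IR 2). Genes under 5 CPM, among them LOX in IR 1, COL2A1 and COL8A2 in IR_Pra, rest on few reads.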
